A study of Mus musculus with 9 samples.

Results

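The enzymes that modify and clear foreign chemicals were followed in mouse lung tissue on 9 expression arrays of a study of ventilator-induced lung injury. The genes were all those whose symbol in the platform's annotation starts with Cyp, Aldh, Ugt, Ephx, Fmo, Cbr or Akr and a digit, or with Gst, a class letter and a digit. This gave 100 genes, each with 1 probe, among 10012 probes on the array. Of the 9 samples, 3 were controls, 3 came from lungs of mice injected with E. coli lipopolysaccharide (LPS, the endotoxin that gram-negative bacteria carry on their surface; 3 mg/kg), and 3 had been ventilated mechanically with a pressure of 25 cmH2O for 3 h, called overventilation here. The labels give no strain, age or sex, no time between injection and sampling, and no account of the treatment of the controls. Nor do they say whether replicates are different animals, so each p-value below measures only the scatter of the samples in hand, and that scatter may be technical.

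Foreign compounds are usually first oxidised, reduced or hydrolysed, by cytochrome P450s (Cyp), flavin monooxygenases (Fmo), aldehyde dehydrogenases (Aldh), carbonyl and aldo-keto reductases (Cbr, Akr) or epoxide hydrolases (Ephx). The products are then joined to glutathione by glutathione transferases (Gst) or to glucuronic acid by UDP-glucuronosyltransferases (Ugt), which makes them easier to export. In the lung much of this capacity sits in the club cells of the airway lining. The aryl hydrocarbon receptor is known for inducing Cyp1a1, and the transcription factor NRF2, encoded by Nfe2l2, for inducing several glutathione transferases and reductases. Several P450s of higher number act on cholesterol, steroids, retinoic acid or vitamin D instead of foreign compounds.

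The deposited values are ratios of each probe to its own control mean, so all levels below are log2 ratios with the control mean at 0, and the level of one gene cannot be set against that of another. Each array also carried a floor, a lowest level shared by its probes before the ratio to each probe's control mean. At probes on the floor of all 9 arrays, it was highest on overventilation array 3, a ratio of 2.222. Probes with a higher control level could have lower ratios on that array. Of the 100 genes, 23 were at the floor on all 9 arrays and 34 on 2 to 8 arrays. The other 43 were at the floor on at most 1 array. A gene was tested where it lay above the highest floor on at least 3 arrays or had no readable floor, which left 45 genes. These were 15 of 34 P450s of families 1 to 4, 4 of 14 P450s of higher number, 10 of 15 glutathione transferases and 8 of 14 aldehyde dehydrogenases. They also included 4 of 9 aldo-keto reductases, 2 of 3 carbonyl reductases, 1 of 6 glucuronosyltransferases, 1 of 2 epoxide hydrolases and none of the 3 flavin monooxygenases. The bar chart of enzyme genes by family shows this account.

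**Figure D1:**
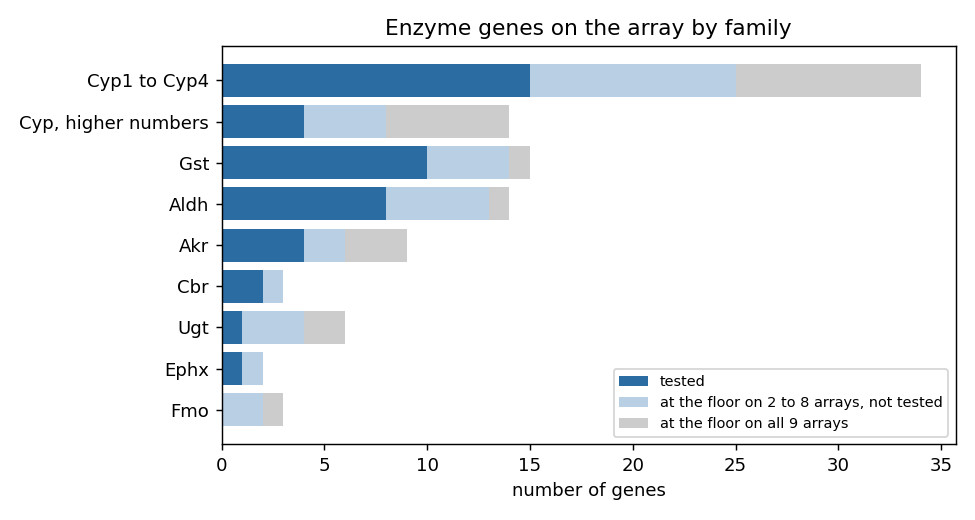
Number of enzyme genes on the array in each family (horizontal axis), split into genes that were tested, genes at the array floor on 2 to 8 of the 9 arrays that were not tested, and genes at the floor on all 9 arrays. The glutathione transferases have 10 of 15 genes tested, while of the P450s of families 1 to 4 the tested genes are 15 of 34.

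Many genes at the floor are known as liver enzymes. Cyp2c29, Cyp2c37, Cyp2c39, Cyp3a11, Cyp3a16, Cyp4a14 and the bile acid enzymes Cyp7a1 and Cyp8b1 were at the floor on all 9 arrays, and so were Cyp11a1, Cyp17a1 and Cyp21a1, which make steroid hormones. The others at the floor throughout were Cyp2b10, Cyp2j5, Cyp4f18, Cyp20a1, Akr1c18, Akr1c21, Akr1cl, Aldh1l1, Fmo5, Gstm7, Ugt1a2 and Ugt8a. Among markers of other tissues, the liver genes Apoa2 and Ttr were also at the floor on all 9 arrays, and Apoa1 and Fgb on 7 each. Only Ahsg of the 5 liver markers on the array was tested. The 6 alveolar type II genes and the 4 club cell genes on the array (the enzymes described here not counted) were all tested. So were the 3 alveolar type I genes and the 4 adipose genes. Among endothelium, ciliated cell and macrophage genes on the array, 3 of 6, 3 of 4 and 3 of 4 were tested. Among neutrophil and smooth muscle genes, 2 of 4 and 4 of 5 were. Cyp2f2 and Cyp4b1, P450s known from lung, were likewise tested, while the lung monooxygenase Fmo2 was not.

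No enzyme gene passed the test in any comparison. By limma with Benjamini-Hochberg adjustment over 5710 probes, the count at an adjusted p under 0.05 was 0 of 45 for overventilation against control, for LPS against control and for overventilation against LPS, and percent called over all probes was 0 in each. The smallest adjusted p of an enzyme gene in these comparisons was 0.193, 1 and 0.494. Differences below are therefore given as values with their spread, and none is a called change. The following counts use an unadjusted p under 0.05, or groups whose 3 values do not overlap, each beside its share over all tested probes.

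The arrays also differed in ways that touch these genes. On overventilation arrays 1 and 3 together, 139 tested probes lay more than 1.5 below all 7 other arrays, and 2 of them, Gsta4 and Aldh2, are enzymes described here. LPS array 2 held 291 lone low values, meaning over 1.5 below the rest, where no other array had more than 41, and Cyp27a1 was among them. Overventilation array 3 held 110 lone high values, where no other array had more than 6, and Gstt1 was among them. The part of these arrays in the results was not tested beyond the values without each array. In whole tissue, fewer cells of a type and less RNA per cell cannot be told apart.

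Overventilation against control addresses how these enzymes differ in lungs ventilated at high pressure. The highest difference among the 45 genes was that of Gsta2, and Akr1b8, Cyp1a1 and Cyp3a13 followed among genes without overlap. The lowest without overlap were Aldh2, Gsta4, Akr1b10 and Cyp1b1. The groups did not overlap for 6 genes on the higher side (13.3%) and 6 on the lower (13.3%), where all tested probes gave 9.19% and 10.5%. At an unadjusted p under 0.05, 5 genes were higher (11.1%, against 6.2% of all probes) and 4 lower (8.89%, against 8.69%), so the lower share in particular was near the background. The median log2 difference of the 45 genes was -0.08, beside -0.02 over 5089 tested genes, and 27 of the 45 lay within 0.5 of 0.

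Gsta2 encodes an alpha class glutathione transferase, a group that detoxifies lipid peroxidation products. It lay at 0.28, 0.12 and -0.40 on control arrays 1 to 3, at -0.28, 0.61 and 0.89 on the LPS arrays and at 2.24, 2.5 and 3.91 on the overventilation arrays. All 3 overventilated samples were thus above all 6 others. Its mean was 2.88 ± 0.90 (SD, n = 3) after overventilation against 0 ± 0.35 in controls, a 7.38-fold difference (log2 difference 2.88, standard error 0.49, limma adjusted p = 0.193). Over 18 alternative settings its difference ranged from 2.30 to 3.21, and the adjusted p was 0.0162 without overventilation replicate 2. Its RefSeq neighbour Gsta1, a close relative, had no probe under that symbol, and whether the Gsta2 probe also detects Gsta1 RNA is not known from the sources used here.

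The aldo-keto reductases Akr1b8 and Akr1b10 reduce aldehydes to alcohols. They are direct neighbours on chromosome 6, with no protein-coding gene between them, and their values lay on opposite sides of the controls. Akr1b8 stood at -0.17, 0.11 and 0.06 in controls, at -0.73, 0.54 and 1.07 after LPS and at 1.56, 1.13 and 1.55 after overventilation. Akr1b10 stood at 0.06, -0.06 and 0 in controls, at 0.11, -0.69 and -1.53 after LPS and at -2.0, -1.77 and -2.93 after overventilation. For both genes the 3 overventilated samples did not overlap with the other 6. For Akr1b8 the gap was narrow, with 1.13 on overventilation array 2 against 1.07 on LPS array 3. The log2 difference from control was 1.41 for Akr1b8 (standard error 0.44, limma adjusted p = 0.214) and -2.23 for Akr1b10 (standard error 0.46, limma adjusted p = 0.193). Without overventilation replicate 2 that of Akr1b10 was -2.46, with an adjusted p of 0.0265, while Akr1b8 ranged from 1.08 to 1.55 over the 18 settings with no adjusted p under 0.136.

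The 250 bases upstream of the annotated starts of these 3 genes are given because Akr1b8 and Akr1b10 share a locus but not a direction, and Gsta2 had the highest value. They come from RefSeq, build GRCm38.p6, are written 5′ to 3′ on the gene's strand, and run from chr6:34353896-34354145 (plus strand) for Akr1b8, chr6:34383997-34384246 (plus strand) for Akr1b10 and chr9:78347146-78347395 (minus strand) for Gsta2. Capitals mark a match to TNGCGTG, the dioxin response core.
Akr1b8: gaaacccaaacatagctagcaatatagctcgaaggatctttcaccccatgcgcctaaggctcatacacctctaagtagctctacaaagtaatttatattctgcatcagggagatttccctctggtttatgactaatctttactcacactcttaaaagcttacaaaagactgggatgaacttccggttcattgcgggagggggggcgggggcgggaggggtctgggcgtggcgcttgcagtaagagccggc
Akr1b10: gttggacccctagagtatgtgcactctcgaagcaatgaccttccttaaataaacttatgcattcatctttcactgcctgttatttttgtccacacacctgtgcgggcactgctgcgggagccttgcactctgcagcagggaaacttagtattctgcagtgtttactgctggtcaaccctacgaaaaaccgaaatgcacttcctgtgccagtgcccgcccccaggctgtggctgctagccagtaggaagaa
Gsta2: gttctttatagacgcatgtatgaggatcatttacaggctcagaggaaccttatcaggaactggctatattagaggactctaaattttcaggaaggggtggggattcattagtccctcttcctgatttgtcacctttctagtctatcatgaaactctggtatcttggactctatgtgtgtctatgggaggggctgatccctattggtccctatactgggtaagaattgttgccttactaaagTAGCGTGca

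Motifs were searched in these 250 base windows on both strands: TGACNNNGC, the core bound by NRF2, and TNGCGTG, the dioxin response core bound by the aryl hydrocarbon receptor. The Gsta2 window held 1 match to the dioxin response core, starting at position -9 from the annotated start, and none to the NRF2 core. The Akr1b8 and Akr1b10 windows held neither. In a gapped alignment 147 of 250 bases of both Akr windows were identical, no more than the 154 between Akr1b8 and Gsta2. Of 94 windows found for 81 of the 100 genes, 9 (9.57%) held the NRF2 core, against 10.2% of all 32851 windows, and 4 (4.26%) the dioxin response core, against 4.1%. Of the 45 tested genes 39 had a window. Gsta4, Aldh2, Aldh3a1, Aldh7a1, Cyp2g1 and Cyp7b1 had none and were not searched. The windows with the NRF2 core among tested genes were those of Gsta3, Gstm5, Aldh1a2 and Aldh9a1, whose groups overlapped between overventilation and control. Besides Gsta2, the tested genes with the dioxin response core were Aldh3a2 and Aldh9a1, whose groups overlapped too. The Cyp1a1 window held no match to that core. A match to these letters is a description of the window, and elements farther upstream were not searched.

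**Figure D2:**
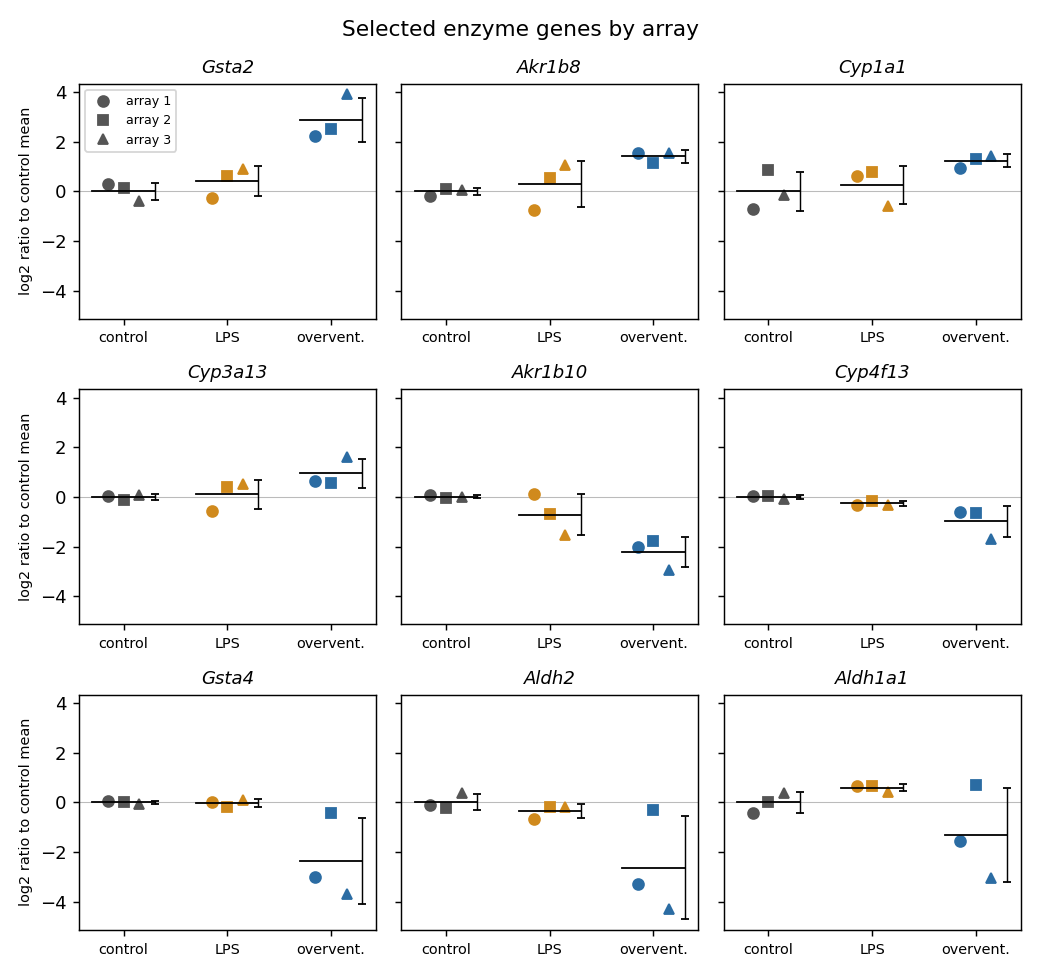
Log2 ratio to the control mean (vertical axis) of 9 enzyme genes on each array, by group, with circles, squares and triangles for arrays 1, 2 and 3. Horizontal lines are group means and bars their SD (n = 3). Of the genes shown, all but Aldh2 and Aldh1a1 keep their 3 overventilated samples apart from the other 6. The gap is narrow for Cyp3a13 (0.57 against 0.51), Akr1b8 (1.13 against 1.07) and Cyp1a1 (0.94 against 0.85). For Gsta4, Aldh2 and Aldh1a1 overventilation array 2 lies nearer to the controls than arrays 1 and 3 do.

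Among the P450s of families 1 to 4, Cyp1a1, which oxidises polycyclic aromatic hydrocarbons, stood at -0.70, 0.85 and -0.15 in controls and at 0.94, 1.32 and 1.44 after overventilation. Array 1 of the latter was close to control 2, although the groups did not overlap. The difference was 1.23 with a standard error of 0.49 (limma adjusted p = 0.275). Cyp3a13, a drug-metabolising P450 found outside the liver, lay between -0.13 and 0.08 in controls and at 0.65, 0.57 and 1.62 after overventilation. Its difference of 0.95 (standard error 0.40, limma adjusted p = 0.304) was 0.61 without overventilation replicate 3. Cyp4f13, of a family that hydroxylates fatty acids and leukotrienes, lay between -0.08 and 0.05 in controls and at -0.60, -0.64 and -1.69 after overventilation. It had a difference of -0.98 (standard error 0.35, limma adjusted p = 0.237), and of -0.62 without overventilation replicate 3.

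Cyp1b1, which activates hydrocarbons and metabolises oestradiol, stood at 0.28, 0.07 and -0.35 in controls and at -0.98, -0.66 and -1.90 after overventilation. The groups did not overlap (difference -1.18, standard error 0.56, limma adjusted p = 0.366). It thus lay on the other side from Cyp1a1, while Cyp1a2, the third gene of this family, did not exceed the highest floor on any array. The remaining P450s of families 1 to 4 overlapped between overventilation and control. Cyp2f2, a P450 of club cells, had a difference of -0.53, with -0.88, -0.14 and -0.58 after overventilation against -0.32, -0.40 and 0.73 in controls. Without control replicate 3 it was -0.17. Cyp4b1 had a difference of 0.08, and the 3 tested Cyp2b genes had differences of 0.19 (Cyp2b9), -0.03 (Cyp2b13) and -0.11 (Cyp2b19). Those of Cyp2c38, Cyp2d9 and Cyp2g1 were -0.29, -0.17 and -0.42. The 15 tested genes of these families had a median of -0.27, 4 of them above 0 and 11 below. Of the club cell markers outside the enzyme list, 1 of 4 had no overlap (Pon1, higher), and the list's median lay from -0.13 to 0.21 in controls, from -0.30 to 0.03 after LPS and from 0.06 to 0.58 after overventilation. Its part in these P450 values was not tested.

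Of the glutathione transferases besides Gsta2, the theta class gene Gstt1 stood at 0.40, 1.01 and 2.82 after overventilation and at -0.87, 0.75 and 0.12 in controls. The groups overlapped, and the difference of 1.41 (standard error 0.63, limma adjusted p = 0.329) was 0.70 without overventilation replicate 3. Gstz1, which also isomerises a tyrosine breakdown product, lay at -0.65, -0.18 and 1.53 on the overventilation arrays, so its difference of 0.24 turned to -0.41 without replicate 3. Gsto1, of the omega class, had a difference of 0.45, and Gstp1, the pi class enzyme, of 0.23. The mu class genes Gstm1, Gstm2 and Gstm5 had differences of 0.25, -0.18 and -0.28, and Gsta3 of 0.19. For these genes overventilation and control overlapped.

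Gsta4, an alpha class transferase for 4-hydroxynonenal, lay between -0.06 and 0.04 in controls and between -0.19 and 0.11 after LPS. On overventilation arrays 1 to 3 it lay at -3.0, -0.41 and -3.67, so arrays 1 and 3 stood far below and array 2 just below the controls. The mitochondrial Aldh2, which oxidises acetaldehyde, did likewise, at -3.28, -0.29 and -4.28 against -0.12, -0.23 and 0.36 in controls. Their differences were -2.36 (standard error 0.69, limma adjusted p = 0.206) and -2.62 (standard error 0.82, limma adjusted p = 0.214). Without overventilation replicate 2 they were -3.33 (adjusted p = 0.00132) and -3.78 (adjusted p = 0.0017), so the call rested on leaving out the array on which both genes were near the controls. Both belong to the 139 probes low on arrays 1 and 3, and the part of that pattern in their values was not tested further.

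The retinaldehyde dehydrogenase Aldh1a1 stood at -1.56, 0.71 and -3.04 after overventilation and at -0.42, 0.02 and 0.40 in controls. Again array 2 lay apart from arrays 1 and 3, here above all 3 controls. The difference of -1.30 (standard error 0.76) was -2.30 without overventilation replicate 2, with an adjusted p of 0.0272, and -0.42 without replicate 3. Aldh3a1, known from cornea and airway, lay at -1.49, -0.28 and -0.67 against -0.39, 0.18 and 0.21 (difference -0.82, limma adjusted p = 0.348). The other 5 tested aldehyde dehydrogenases had differences between -0.14 (Aldh1a2) and 0.42 (Aldh1a7), and all overlapped with the controls.

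Both tested carbonyl reductases had overventilated samples above all controls. Cbr2, an abundant carbonyl reductase of lung, stood at 0.44, 0.33 and 1.02 against -0.31, -0.01 and 0.32, a difference of 0.60 (limma adjusted p = 0.449) whose lowest overventilated value barely exceeded the highest control. Cbr3 was raised to the common floor on all 3 controls and stood at 0.20, 0.21 and 1.35 after overventilation. Its difference of 0.59 (limma adjusted p = 0.501) depends on that floor and was 1.03 with each array at its own floor, but 0.21 without overventilation replicate 3. On the common scale of the floors Cbr3 lay at 0.99, 0.73 and 0.40 in controls, the last being that array's floor. After overventilation it lay at 1.35, 1.36 and 2.5. The floor of overventilation array 3 is itself 1.15 on this scale, above all 3 controls, so on this scale that array could not have overlapped whatever its signal. The overlap itself was judged on the values raised to the common floor, where all 3 controls lie at 0. Akr7a5, an aflatoxin aldehyde reductase, had a difference of -0.59 without overlap, and Akr1a1 one of 0.40 with overlap. The microsomal epoxide hydrolase Ephx1 had a difference of -0.48 and the glucuronosyltransferase Ugt1a6a one of 0.27, both with overlap.

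**Figure D3:**
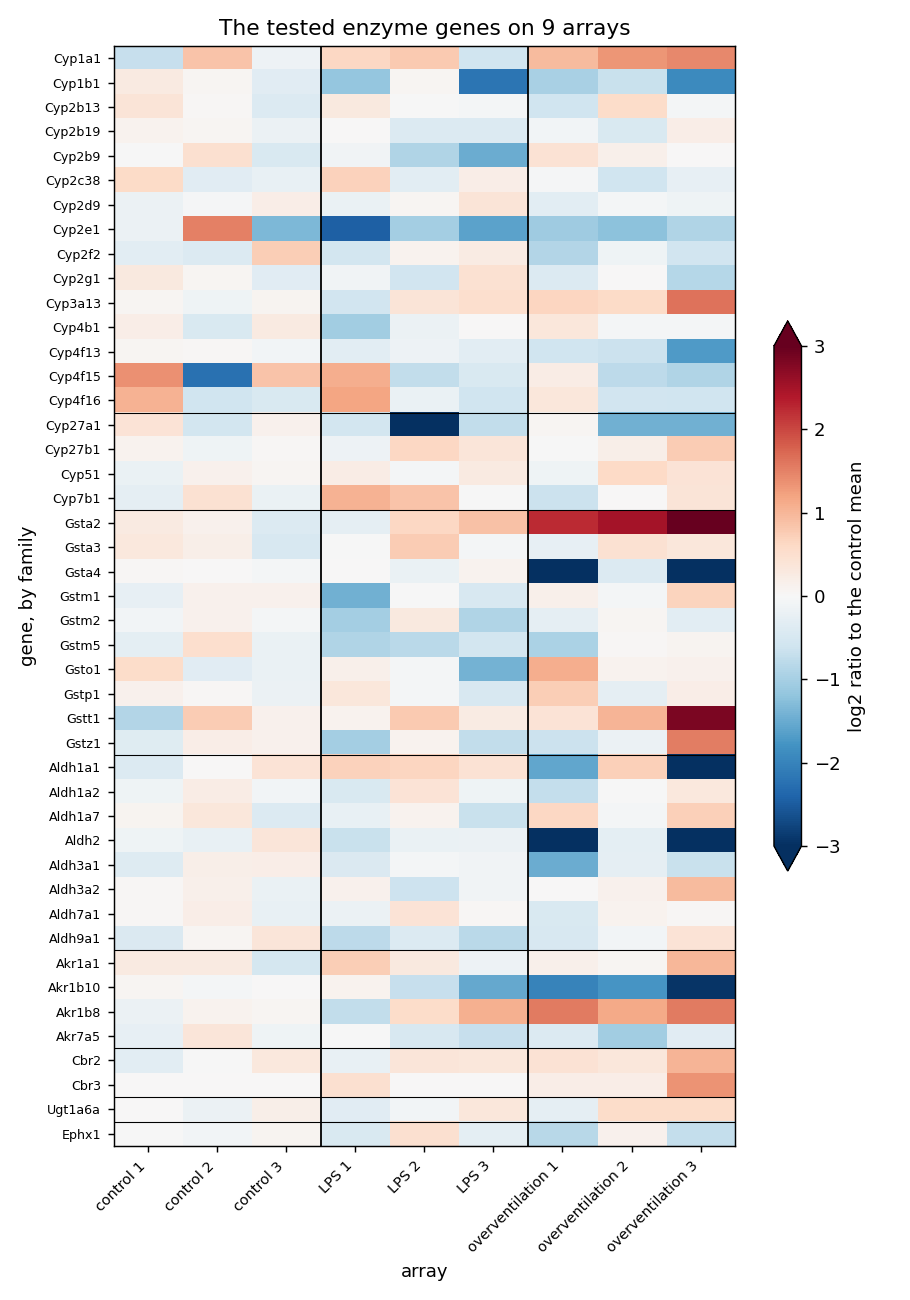
Log2 ratio to the control mean (colour, limited to 3 on either side) of the 45 tested enzyme genes (rows, by family) on the 9 arrays (columns, by group). Gsta2 stands out as high on all 3 overventilation arrays, and Gsta4 and Aldh2 as low on overventilation arrays 1 and 3.

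LPS against control addresses the enzymes in lungs of mice given endotoxin, whose labels do not mention ventilation. Here the enzyme genes with the lowest means were Cyp2e1, Cyp27a1 and Cyp1b1, and no gene was higher by more than 0.63 (Cyp7b1). At an unadjusted p under 0.05, none of 45 was higher (0.998% of all probes) and 1, Cyp2e1, was lower (1.07% of all probes). The groups did not overlap for 1 gene on the higher side, Aldh1a1 (2.24% of all probes), and for 2 on the lower, Gstm5 and Cyp4f13 (4.08% of all probes). The median over the 45 genes was -0.06, beside -0.05 over 5089 genes, and 33 lay within 0.5 of 0. With the replicate number as a block, the count of all probes at an unadjusted p under 0.05 went from 118 to 314, and 0 were called.

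Cyp2e1, which oxidises ethanol and small solvents, lay at -0.17, 1.51 and -1.34 in controls and at -2.45, -1.03 and -1.60 after LPS. The controls were spread widely and control 3 lay within the LPS range. The value of control 2 is a lone high one, over 1.5 above all other arrays. The difference was -1.69 (standard error 0.65, limma adjusted p = 1), and -0.94 without control replicate 2. Between arrays of the same number Cyp2e1 was lower after LPS in 3 of 3 pairs, with differences of -2.28, -2.54 and -0.26. The same held for Aldh1a7, Aldh3a1, Aldh9a1, Cyp2b9, Cyp2b19, Cyp4f13, Cyp27a1, Gstm1, Gstm5 and Gstz1. With the replicate block the limma adjusted p of Cyp2e1 and these genes lay between 0.826 and 0.941. In the other direction, Akr1a1, Aldh1a1, Cbr2, Cyp2c38, Cyp7b1 and Gstt1 were higher after LPS in 3 of 3 pairs. How many of all probes were lower or higher in 3 of 3 pairs was not counted, so neither list has a background share. The labels name no such pairing. After overventilation Cyp2e1 stood at -1.06, -1.24 and -0.91, also within the range of the controls (difference -1.07, and -0.32 without control replicate 2). Adipose tissue markers differed between the same controls: the median of the 4 tested genes (of 4 on the array) lay at 0.68 and 0.92 on control arrays 1 and 2 and at -1.68 on control 3, between -3.75 and -1.57 after LPS and between -2.17 and -0.48 after overventilation. Their part in the Cyp2e1 values was not tested.

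Cyp27a1, a sterol hydroxylase of mitochondria, lay at -0.54, -3.72 and -0.75 on the LPS arrays and at 0.42, -0.54 and 0.12 in controls. The value of LPS array 2 is a lone low one, and without LPS replicate 2 the difference of -1.67 was -0.64. Cyp7b1, which hydroxylates oxysterols such as 25-hydroxycholesterol, stood at 1.05, 0.85 and -0.01 after LPS against -0.27, 0.46 and -0.19 in controls. Cyp1b1 stood at -1.17, 0.07 and -2.19 after LPS, a difference of -1.10 with overlap that was -0.55 without LPS replicate 3 and -1.68 without LPS replicate 2. Cyp2b9 stood at -0.10, -0.91 and -1.48, a difference of -0.83 with overlap. Cyp27b1, the enzyme that makes active vitamin D, had differences of 0.27 after LPS and 0.30 after overventilation, and Cyp51, of cholesterol synthesis, of 0.15 and 0.29, each with overlap.

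The 3 tested mu class transferases had lower means after LPS. Gstm1 stood at -1.44, -0.02 and -0.47, Gstm2 at -1.02, 0.29 and -0.91, and Gstm5 at -0.90, -0.81 and -0.54. Gstm5 was the one whose LPS values all lay below the controls (-0.29, 0.50 and -0.21), with a difference of -0.75 (standard error 0.38, limma adjusted p = 1). Gstm1 and Gstm2 are direct neighbours on chromosome 3, and since the probe sequences were not used here, signal shared between such similar genes cannot be told apart. Aldh1a1 stood at 0.68, 0.65 and 0.43 after LPS, just above the controls (difference 0.59). Aldh9a1 stood at -0.78, -0.41 and -0.81, with control 1 at -0.43 (difference -0.67), and Cyp4f13 at -0.31, -0.16 and -0.31 (difference -0.26).

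The direct comparison of overventilation with LPS tests whether both injuries differ. It placed Gsta2, Akr1b8, Cyp2b9, Cyp1a1 and Cyp3a13 higher after overventilation without overlap (5 of 45, against 5.73% of all probes) and Gsta4, Akr1b10 and Cyp4f13 lower (3 of 45, against 5.46%). At an unadjusted p under 0.05, 3 were higher (3.57% of all probes) and 4 lower (5.94% of all probes). The log2 difference was 2.48 for Gsta2 (95% confidence interval 1.37 to 3.58), 1.12 for Akr1b8 (0.13 to 2.10), 1.02 for Cyp2b9 (0.11 to 1.94) and -1.53 for Akr1b10 (-2.55 to -0.50), with limma adjusted p between 0.494 and 0.497. For Aldh2 and Aldh1a1 it was -2.26 and -1.88 with overlap, and for Gsta4 -2.34. Without overventilation replicate 2 the adjusted p was 0.0339 for Gsta2, 0.00162 for Gsta4, 0.00306 for Aldh2 and 0.0112 for Aldh1a1. Leaving out LPS replicate 1 took Akr1b8 to 0.61 and Cyp3a13 from 0.84 to 0.50, and leaving out LPS replicate 3 took Cyp1a1 from 0.97 to 0.54. Without overventilation replicate 3, Cyp4f13 went from -0.72 to -0.36. This comparison and that with control share the overventilated samples.

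**Figure D4:**
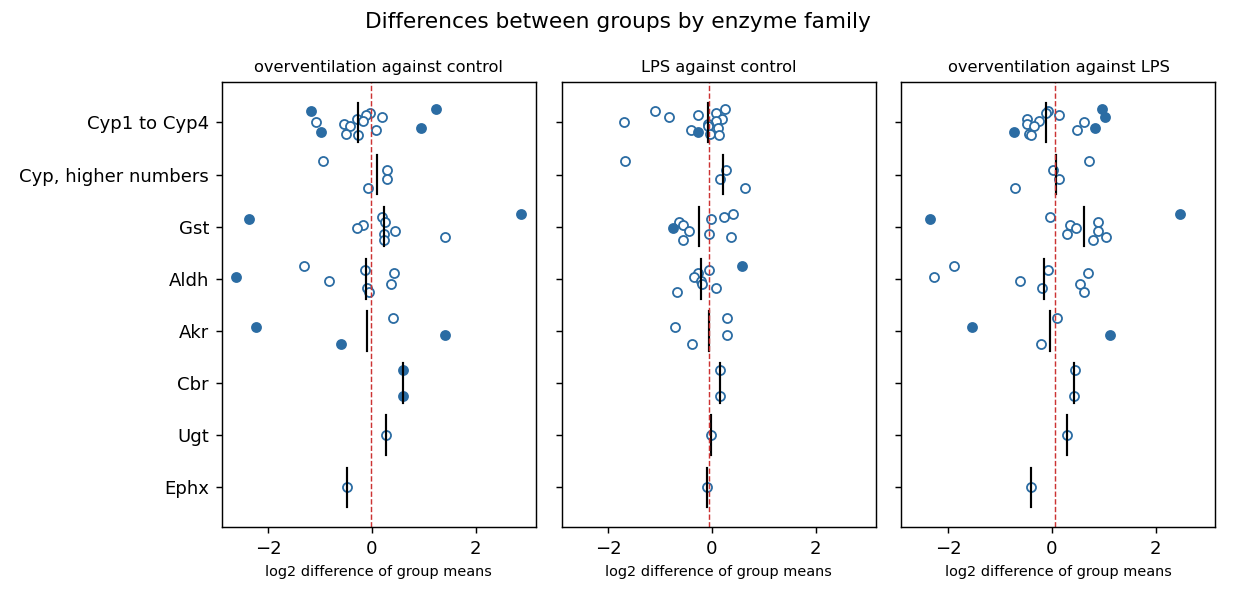
Log2 difference of group means (horizontal axis) of each tested enzyme gene by family, in the 3 comparisons. Filled points are genes whose 2 groups do not overlap, black lines the family medians and the dashed line the median over 5089 tested genes. Family medians lie between -0.48 and 0.63, and the widest spread is that of the glutathione transferases after overventilation, from -2.36 to 2.88.

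By family, the medians for overventilation against control, beside -0.02 over all genes, were 0.23 for 10 glutathione transferases, -0.12 for 8 aldehyde dehydrogenases, -0.10 for 4 aldo-keto reductases and 0.10 for 4 P450s of higher number. The 2 carbonyl reductases had 0.59, and the single Ephx and Ugt genes -0.48 and 0.27. For LPS against control the same families gave -0.25, -0.20, -0.05 and 0.21, and the 15 P450s of families 1 to 4 gave -0.07. For overventilation against LPS, where all genes had a median of 0.07, the glutathione transferases had 0.63, with 8 of 10 genes above 0, and the carbonyl reductases 0.43. For overventilation against control, single genes ranged from -2.36 to 2.88 among the glutathione transferases and from -2.62 to 0.42 among the aldehyde dehydrogenases. Those of the 2 carbonyl reductases lay at 0.59 and 0.60. The most variable among the controls was Cyp4f15, at 1.38, -2.23 and 0.85, and its relative Cyp4f16 lay at 1.05, -0.59 and -0.46, and the groups of both genes overlapped in all 3 comparisons.

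Of the 34 genes at the floor on 2 to 8 arrays, Cbr3 and Cyp4f16 were tested, and the other 32 are described by the arrays on which they lay above it. On control arrays 1 to 3, 20, 15 and 6 of the 34 did so, on the LPS arrays 14, 15 and 10, and on the overventilation arrays 16, 19 and 7. Control 3 and overventilation array 3, with the fewest, also had the highest floors (ratios of 1.317 and 2.222). Aldh1a3, a retinoic acid producing dehydrogenase, was above its floor on 3 of 3 LPS arrays, 2 overventilation arrays and 1 control array, and Cyp26a1, which degrades retinoic acid, on 3 LPS arrays, 1 control array and no overventilation array, never by more than 0.19. Cyp1a2 was above it on 7 arrays by at most 0.68, Cyp2d26 on all 3 overventilation arrays by 0.35, 0.67 and 0.31, and the lung monooxygenases Fmo1 and Fmo2 on 6 and 3 arrays, with at least 1 in each group. Distances above the floor are not set against each other between arrays, since the floors differ, and no fold is given for the 32 genes.

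The wider pathway was read from 66 further genes, of which 52 were on the array and 25 tested. For overventilation against control 2 were higher and 2 lower at an unadjusted p under 0.05 (6.2% and 8.69% of all probes), and none passed the adjusted threshold by limma. Nfe2l2 stood at 1.42, 1.04 and 1.48 after overventilation against 0.12, 0.58 and -0.70 in controls (difference 1.31, limma adjusted p = 0.218). Gclc, the catalytic subunit of glutathione synthesis, stood at 1.30, 2.02 and 2.87, above all controls, whereas its modifier subunit Gclm lay at -0.93, 0.96 and -1.91. The aryl hydrocarbon receptor gene Ahr had a difference of 0.35 and its repressor Ahrr of 0.18, both with overlap. Microsomal transferase Mgst1 lay at -2.39, 0.29 and -3.72 on the overventilation arrays, low on arrays 1 and 3 as Gsta4 and Aldh2 were, and the exporter Abcb1a at -3.24, -0.74 and -3.30, the last at the common floor. The xenobiotic receptor genes Nr1i2 and Nr1i3 were at the floor on all 9 arrays, and Nqo1, a quinone reductase, on 5. After LPS, 0 of the 25 reached an unadjusted p under 0.05 (0.998% and 1.07% of all probes). Nfe2l2 stood at 0.06, 1.29 and 0.45 on the LPS arrays, a difference of 0.60 from control, and overlapped with both other groups. The median difference of Gclc and Gclm from control was 0.79 after LPS and 0.72 after overventilation.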

How the data were processed

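Per the values of the deposited table, its numbers are linear ratios (fold of the control mean): the mean log2 ratio of the 3 controls was 0 at each of 10012 probes, within 2.5e-09. What array was used, with which dyes, scanner and normalization, is not given in the sources used here. Gene names came from the platform annotation, and the gene IDs of all 100 enzymes were found in RefSeq.

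Floors were read from 4690 probes at which at least 2 arrays shared a fixed pattern (tolerance 1e-06 on the log2 scale). There, values were raised to the highest floor (1.152 on the log2 scale) and set to the control mean again. Of all probes, 5710 were tested. A 3-group model of all 9 arrays was fitted in R 4.3.3 by limma 3.58.1 with lmFit and eBayes (two-sided tests), and p-values were adjusted by Benjamini-Hochberg with a threshold of 0.05. For medians over all genes, 1 probe per gene was kept. A moderated F test over the 3 groups called 0 probes. The script was tested on simulated data.

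Named genes were those past the threshold, up to 10 higher and 10 lower genes without overlap per comparison, and a list of lung and stress enzymes; Cyp4f15, Cyp4f16 and genes at the floor were added. The members and lists were chosen with earlier results of these data known. Deviations of same-numbered arrays from their group means correlated at 0.497, 0.247 and 0.199 for LPS and control, which meets the limit of 0.1 for pairing, with no label to say so. Overventilation and control gave 0.508, 0.133 and 0.033. The model that gives the printed values is unpaired, and the replicate number as a block is an alternative. Alternatives were no filter, deposited values, a pseudocount, quantile normalization, median centring, array weights, lone values set to missing, a replicate block, fits of 2 groups and leaving out each array.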

Additional observations from a re-analysis of the deposited data

How the results depend on the processing

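The count of probes called was 0 in each comparison and stayed 0 in most of the 18 alternatives, including the replicate block (0 probes for overventilation against control, for LPS against control and for overventilation against LPS). With lone values set to missing it was 1 for overventilation against control. Leaving out each array in turn gave 0 to 290 for overventilation against control, 0 to 1 for LPS against control, 0 to 226 for overventilation against LPS and 0 to 200 by the F test. The highest counts came without overventilation replicate 2, and those of 1 without control replicate 3. Without overventilation replicate 2, 290 of 5710 probes were called against control. Among the 45 enzyme genes 5 were called (Gsta2, Akr1b10, Gsta4, Aldh2 and Aldh1a1). Against LPS, 226 of 5710 probes and 4 of 45 enzyme genes were called without that array. The cause was not tested. No named enzyme gene was called under any other alternative. Counts at an unadjusted p under 0.05 moved more: 850 for overventilation against control became 411 with quantile normalization, 483 without overventilation replicate 3 and 1200 with the replicate block, and 118 for LPS against control became 314 with the replicate block, 420 with array weights and 56 to 457 when 1 array was left out. For overventilation against LPS 543 became 220, 840 and 181 with quantile normalization, the replicate block and without overventilation replicate 3. Of 51 differences of named genes of at least 0.5, 37 moved by over 1.5 times when 1 array was left out. The enzyme median for overventilation against control (-0.08) was 0.06 without control replicate 1 and 0.07 without overventilation replicate 1. The number of arrays and the floors limit what can be seen: 55 of 100 genes were not tested.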

Other observations

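Direct neighbours on a chromosome were looked at for 5 pairs of tested enzyme genes, chosen after their values were seen, and their log2 differences between overventilation and control were of either kind. Akr1b8 and Akr1b10 had 1.41 and -2.23, Aldh1a1 and Aldh1a7 on chromosome 19 had -1.30 and 0.42, and Aldh3a1 and Aldh3a2 on chromosome 11 had -0.82 and 0.36. Gstm1 and Gstm2 lay closer together, at 0.25 and -0.18, and so did Cyp2b9 and Cyp2b13, at 0.19 and -0.03. Gsta2 and Gsta4, on chromosome 9 with 5 protein-coding genes between them, stood at 2.24 and -3.0 on overventilation array 1. On overventilation array 2 Gsta4, Aldh2 and Aldh1a1 stood at -0.41, -0.29 and 0.71, while Gsta2 and Akr1b8 stood at 2.5 and 1.13. The differences between neighbours were not tested.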
